A study of Homo sapiens with 4 samples.

Results

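Transcripts of the cytosolic ribosomal proteins were followed in HepG2, a liver cancer cell line, that had received either anti-miR-191, an oligonucleotide that blocks the microRNA miR-191, or the control oligonucleotide anti-miR-NC. The members are the genes whose array row carries exactly 1 symbol of the RPL or RPS series, or RPLP0, RPLP1, RPLP2 or RPSA, without the RPS6K kinases, RPS19BP1 and pseudogenes, and the brightest row stands for each gene. The rule gave 68 of 18417 genes, 44 of the RPL series for the large subunit and 24 of the RPS series for the small subunit. It did not use the comparison of the groups. Both groups grew in MEM-Eagle with serum and were transfected with Oligofectamine, a lipid reagent, and no dose or harvest time is stated in the labels. There were 2 independent experiments, each with 1 anti-miR-191 array and 1 control array, so 4 Affymetrix arrays were used in all.

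A ribosome is built from ribosomal RNA and about one copy of each ribosomal protein, divided between a small subunit that reads the mRNA and a large subunit that joins the amino acids. Most ribosomal protein mRNAs begin with a cytosine followed by an unbroken stretch of pyrimidines, the 5′ terminal oligopyrimidine (TOP) tract, through which mTOR signalling and LARP1 control their translation and stability. The genes also have many processed pseudogenes of nearly the same sequence, so a probe set can take up signal from more than one copy and single genes of the family are uncertain to that extent.

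Values are RMA intensities on the log2 scale, in which 1 unit is a 2-fold difference. They compare a gene between arrays, not one gene with another. Changes are anti-miR-191 minus control, given for experiment 1 and experiment 2 and as their mean ± SE. The words rose and fell are kept for genes whose adjusted p was under 0.05 in limma's fit with the experiment as a block. Outcomes of the fit without that block are given beside these calls, as values or as counts of genes. The 4 arrays had medians from 4.37 to 4.43, with interquartile ranges of 3.18 and 3.24 for the controls and a wider 3.38 and 3.43 for the treated arrays. The part of that wider range in the changes of bright genes such as these was not tested, and the calls after quantile normalization, which equalizes it, are given where they differ. All 13 hepatocyte and HepG2 markers found on the array lay above the limit on dim rows, with mean levels from 4.99 (FGB) to 11.3 (APOA1). The 13 markers changed by a median of 0.03 in experiment 1 and by -0.68 in experiment 2, where all 13 were lower, and the part of this shift in the results for experiment 2 was not tested. Markers of fibroblasts, endothelium, blood and keratinocytes had mean levels from 2.41 (LUM) to 6.07 (COL1A1), apart from LYZ at 9.40.

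The inhibited microRNA and the transcription starts of the ribosomal protein genes that passed the test are shown first, since the rest of the results refer to them. Sequences are those of RefSeq on GRCh38.p14. The mature miR-191 strand from the 5′ arm lies at chr3:49020672-49020694 on the minus strand, and its seed, bases 2 to 8, is in capitals.
hsa-miR-191-5p: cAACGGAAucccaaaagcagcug

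Each window below runs from 10 bases before the annotated start of the gene to 20 bases from it, and capitals mark an unbroken run of C and T that begins with C at the start itself and holds at least 5 bases. All 13 genes that passed the test are shown. The first 7 belong to genes that fell and carry such a run.
RPL7A (chr9:133348208-133348237, plus strand): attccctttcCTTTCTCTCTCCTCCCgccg
RPL35 (chr9:124861938-124861967, minus strand): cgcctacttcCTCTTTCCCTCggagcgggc
RPL36 (chr19:5690285-5690314, plus strand): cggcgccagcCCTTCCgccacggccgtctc
RPS9 (chr19:54200848-54200877, plus strand): gcttccgcgcCTCTTTCTCagtgaccgggt
RPS21 (chr20:62387093-62387122, plus strand): ctagctgcttCCTTTCTCTCTCgcgcgcgg
RPS14 (chr5:150449720-150449749, minus strand): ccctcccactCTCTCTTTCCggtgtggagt
RPL27A (chr11:8682782-8682811, plus strand): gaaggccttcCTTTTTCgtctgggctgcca

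The next 3 belong to RPL27, RPS28 and RPS29, which fell and have no such run at the annotated start. In RPS28 a pyrimidine tract begins just after that start and is not marked. The last 3 belong to the genes that rose, of which RPS3A and RPL22L1 carry a run and RPL7L1 does not.
RPL27 (chr17:42998409-42998438, plus strand): gtgaaaggttagcggaagtgtccttctttc
RPS28 (chr19:8321486-8321515, plus strand): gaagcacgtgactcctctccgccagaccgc
RPS29 (chr14:49598691-49598720, minus strand): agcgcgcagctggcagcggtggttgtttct
RPS3A (chr4:151099618-151099647, plus strand): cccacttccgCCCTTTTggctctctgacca
RPL22L1 (chr3:170870176-170870205, minus strand): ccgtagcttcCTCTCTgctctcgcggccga
RPL7L1 (chr6:42879606-42879635, plus strand): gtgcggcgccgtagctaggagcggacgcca

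Ribosomal protein transcripts were lower on balance after anti-miR-191, by a small amount and not in every gene. Of the 68 members, 66 were bright enough to be tested and 2 were left out as dim, the paralog RPL39L and the non-coding divergent transcript RPL34-DT, which the symbol rule admits. In the fit with the block 10 members fell (15.2% of 66, against 3.77% of all 14147 genes tested) and 3 rose (4.55%, against 10.1% of all genes). Without the block 2 fell, RPL7A and RPL35, and 0 rose, with 0.714% and 3.20% of all genes lower and higher. At an unadjusted p under 0.05, limma counted 14 of the 66 members lower and 3 higher without the block. Among all 14147 genes the same fit counted 889 lower and 2159 higher.

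The median change over the 66 members was -0.23 in experiment 1 and -0.11 in experiment 2, where the median of all genes tested was 0.02 and 0.01. Lower in both experiments were 34 members (51.5%), against 33.0% of all genes, and higher in both were 13 (19.7%), against 36.5% of all genes. The remaining 19 members changed in opposite directions. For 28 members (42.4%) both anti-miR-191 arrays read below both control arrays, which held for 23.8% of all genes, and for 8 members (12.1%) both read above, which held for 29.4% of all genes. The middle of the family moved little: quartiles of the mean change were -0.39 and 0.09, and the extremes were -1.06 (RPL7A) and 1.31 (RPL22L1). Across the 66 members the changes of the 2 experiments had Pearson r = 0.694 and Spearman rho = 0.704. These coefficients are descriptions across genes measured on the same 4 arrays, and r over all genes tested was 0.678.

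**Figure D1:**
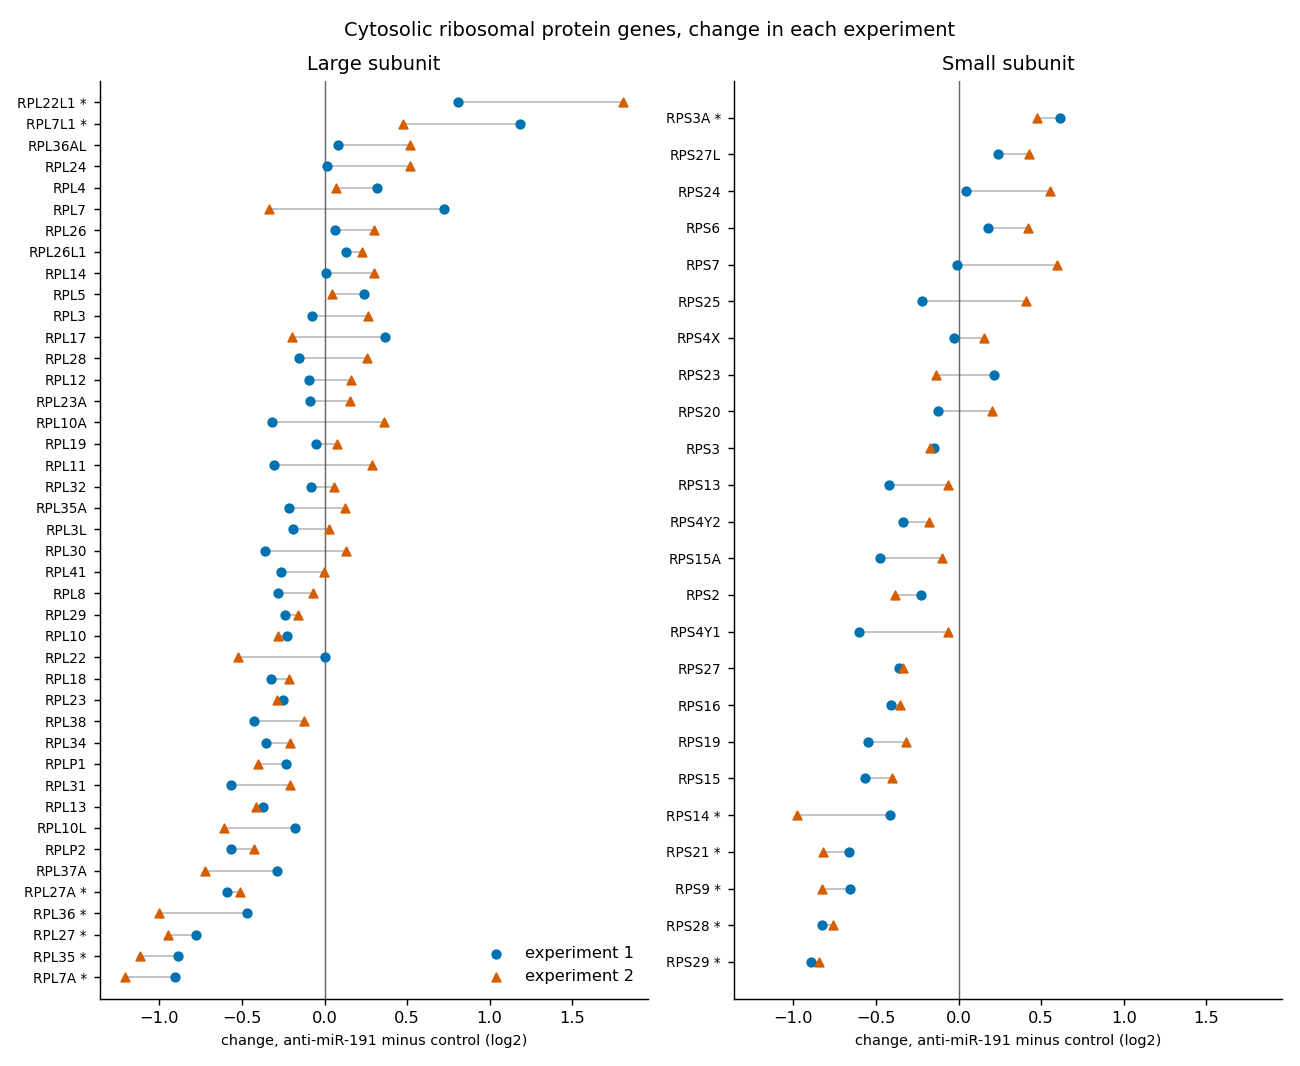
Change of each of the 66 tested members (anti-miR-191 minus control, log2 units on the horizontal axis), large subunit on the left and small subunit on the right, with a circle for experiment 1 and a triangle for experiment 2 and an asterisk on the 13 genes past the threshold. Lower values are the more frequent in both panels, though in experiment 2 only 22 of 42 large subunit members were lower. RPL22L1 and RPL7L1 stand at the top of the large subunit.

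**Figure D2:**
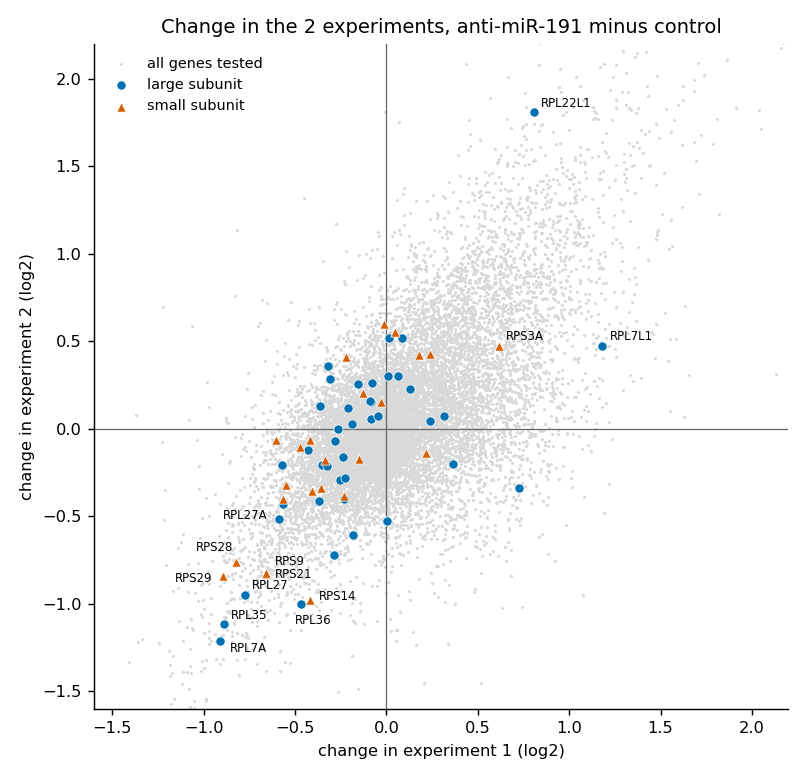
Change in experiment 1 (horizontal) against change in experiment 2 (vertical), in log2 units, for large subunit members (circles), small subunit members (triangles) and all genes tested (grey; 79 genes lie outside the plotted range, none of them a member). The 10 members that fell lie in the lower left quadrant, where 34 of the 66 members lie.

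Among large subunit proteins, 5 of 42 fell and 2 rose (11.9% and 4.76%, against 3.77% and 10.1% of all genes). RPL7A, which binds ribosomal RNA during assembly of the large subunit, read 9.81 and 9.39 on the anti-miR-191 arrays of experiments 1 and 2 and 10.71 and 10.61 on the controls. Both treated arrays lay below both controls. Its change was -0.91 and -1.21, a mean of -1.06 ± 0.15 or 2.08-fold lower (adjusted p = 0.0064 with the block and 0.039 without it). RPL35, a protein beside the exit of the peptide tunnel, read 10.40 and 10.42 after anti-miR-191 against 11.29 and 11.54 in controls. The groups did not overlap, and RPL35 was 2.00-fold lower (SE of the log2 change 0.15, adjusted p = 0.0069 with the block and 0.033 without it).

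RPL27, one of the genes mutated in Diamond-Blackfan anaemia, an inherited failure of red cell production, read 9.96 and 10.24 against 10.74 and 11.19. Its anti-miR-191 arrays were again the lower pair, and it fell by 0.86 ± 0.15 (adjusted p = 0.011). RPL36 fell by 0.74 ± 0.17 (adjusted p = 0.030), from 8.48 and 9.19 in controls to 8.01 and 8.19. Its fall was larger in experiment 2 than in experiment 1 (-0.47), and its control arrays differed more from each other than its treated arrays did. RPL27A read 11.39 and 11.60 against 11.98 and 12.11, a change of -0.55 ± 0.14 (adjusted p = 0.044). That call is near the threshold and was lost after cyclic loess, quantile normalization or median centring (adjusted p between 0.051 and 0.082), and RPL27A has rows that move in opposite directions, described further on. Without the block the adjusted p of RPL27, RPL36 and RPL27A was 0.073, 0.159 and 0.112.

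The 2 large subunit genes that rose, RPL22L1 and RPL7L1, are paralogs of core ribosomal proteins and not core proteins themselves. RPL22L1, which can take the place of RPL22 in the ribosome, read 5.57 and 6.95 after anti-miR-191 and 4.77 and 5.14 in controls. It had the largest change of the family, 0.81 and 1.81 in the 2 experiments (1.31 ± 0.23, adjusted p = 0.012 with the block and 0.148 without it). Its control levels lay within the range of the markers of other cell types, so RPL22L1 is not shown to be above background in controls. RPL7L1, a relative of RPL7 found in ribosome precursors, read 8.55 and 8.57 against 7.37 and 8.10 and rose 1.78-fold (0.83 ± 0.19, adjusted p = 0.028 with the block and 0.125 without it). Under quantile normalization its adjusted p was 0.063.

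In the small subunit 5 of 24 members fell and 1 rose (20.8% and 4.17%, against 3.77% and 10.1% of all genes). RPS29, a zinc-binding protein of the subunit head, read 4.82 and 5.16 after anti-miR-191 and 5.71 and 6.003 in controls. The groups did not overlap and RPS29 fell by 0.87 ± 0.14 (adjusted p = 0.010), at levels within the range of the markers of other cell types. RPS28, which lies near the mRNA exit, read 11.26 and 11.63 against 12.08 and 12.39. It fell by 0.79 ± 0.14 (adjusted p = 0.013), and its changes of -0.82 and -0.76 were nearly equal in the 2 experiments. RPS9, which lies near the mRNA entry, read 11.24 and 11.52 against 11.89 and 12.35 and fell by 0.74 ± 0.15 (adjusted p = 0.017).

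RPS21 read 8.88 and 9.34 after anti-miR-191 and 9.54 and 10.16 in controls. All 4 arrays followed the experiment as well as the treatment, the second experiment being the brighter in each group, and the fall was 0.74 ± 0.15 (adjusted p = 0.017). RPS14, the gene whose loss of one copy underlies the anaemia of the 5q- syndrome, read 11.46 and 11.55 against 11.87 and 12.53. It fell by 0.70 ± 0.18 (adjusted p = 0.038), more in experiment 2 (-0.98) than in experiment 1 (-0.42), and its adjusted p was 0.089 under quantile normalization and 0.057 under cyclic loess. Without the block none of these 5 passed (adjusted p between 0.062 for RPS29 and 0.169 for RPS21).

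RPS3A, a protein near the mRNA exit, was the small subunit member that rose. It read 10.37 and 10.48 after anti-miR-191 and 9.75 and 10.00 in controls, a 1.46-fold rise (0.55 ± 0.15, adjusted p = 0.047 with the block and 0.120 without it). The call did not hold under median centring (adjusted p = 0.055), quantile normalization (0.053), a stricter limit on dim rows (0.051) or the mean of its rows (0.193).

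**Figure D3:**
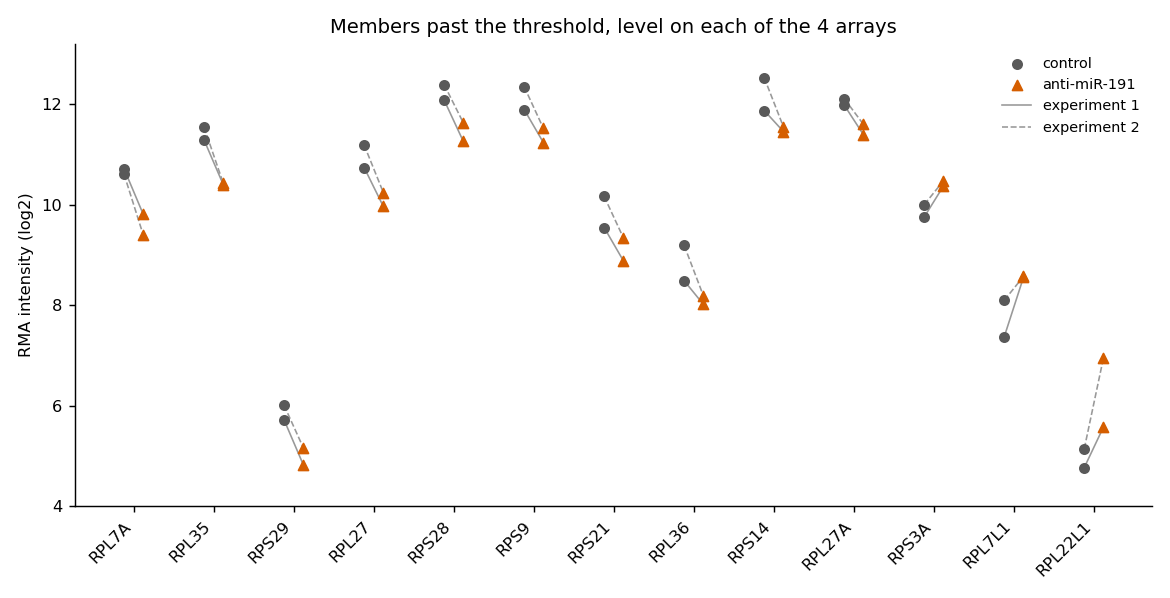
RMA intensity (log2) of the 13 members past the threshold on each of the 4 arrays, with circles for control and triangles for anti-miR-191 arrays, joined by a solid line in experiment 1 and a dashed line in experiment 2. For each of these genes both anti-miR-191 arrays lie on the same side of both control arrays. The genes were chosen for their difference on these same arrays. Of all genes tested, 23.8% had both anti-miR-191 arrays below both controls and 29.4% had both above.

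The other 53 tested members did not pass, with mean changes from -0.51 (RPL37A) to 0.33 (RPS27L). Just outside the threshold stood RPLP2, an acidic protein of the stalk that recruits elongation factors. It read 11.01 and 11.35 after anti-miR-191 against 11.57 and 11.78 in controls, a change of -0.50 ± 0.15 (adjusted p = 0.063), and passed when the spread was moderated with a trend and robustly (adjusted p = 0.027). Its stalk partner RPLP1 had a change of -0.32 ± 0.15 (adjusted p = 0.212), and RPLP0 had no row with 1 symbol. RPS15 (-0.48 ± 0.15) and RPS19 (-0.44 ± 0.15), the latter the most often mutated gene of Diamond-Blackfan anaemia, had adjusted p = 0.070 and 0.101.

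RPL5 and RPL11, which bind MDM2 together with 5S ribosomal RNA when ribosome assembly fails, were close to their control levels. RPL5 had a change of 0.14 ± 0.15 and RPL11 one of -0.01 ± 0.18, the latter the mean of -0.31 and 0.29 in the 2 experiments. RPL10, which joins the large subunit late in assembly, had a change of -0.25 ± 0.14. RPS3, at the mRNA entry, read 12.71 and 12.63 against 12.86 and 12.81, a change of -0.16 ± 0.14. RPS6, the substrate of S6 kinase, was higher in both experiments (0.18 and 0.42) but did not pass (0.30 ± 0.15, adjusted p = 0.247). Higher values that did not pass were also read for RPS24 (0.30 ± 0.17), RPL24 (0.27 ± 0.17) and RPL4 (0.19 ± 0.15). RPL7 changed in opposite directions, with 0.73 in experiment 1 and -0.34 in experiment 2, and its control arrays read 7.92 and 8.89.

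Set side by side, the small subunit had the lower medians. The median change of the 42 large subunit members was -0.22 in experiment 1 and -0.04 in experiment 2, and that of the 24 small subunit members was -0.35 and -0.15. After cyclic loess the large subunit median in experiment 2 was 0.01, on the other side of 0, while both medians of experiment 1 and the small subunit median of experiment 2 stayed below 0 under each scaling tried. Large minus small, the difference of medians was 0.13 in experiment 1 and 0.12 in experiment 2. The spread within each subunit was wider than that, with an SD over genes of 0.41 and 0.53 for the large and 0.37 and 0.48 for the small subunit in experiments 1 and 2. Lower in both experiments were 19 of 42 large subunit members (45.2%) and 15 of 24 small subunit members (62.5%), against 33.0% of all genes.

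Of the 9 tested paralogs 6 carry RPL names. Among the 57 core members, with paralogs left out, the medians were -0.25 and -0.14 for 36 large subunit genes and -0.36 and -0.17 for 21 small subunit genes, so that the difference was 0.11 in experiment 1 and 0.03 in experiment 2. Of these core genes 10 fell and 1 rose (17.5% and 1.75%, against 3.77% and 10.1% of all genes). An exact permutation test of 2 arrays against 2 cannot go below p = 0.333, so the difference between subunits is given without a test.

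**Figure D4:**
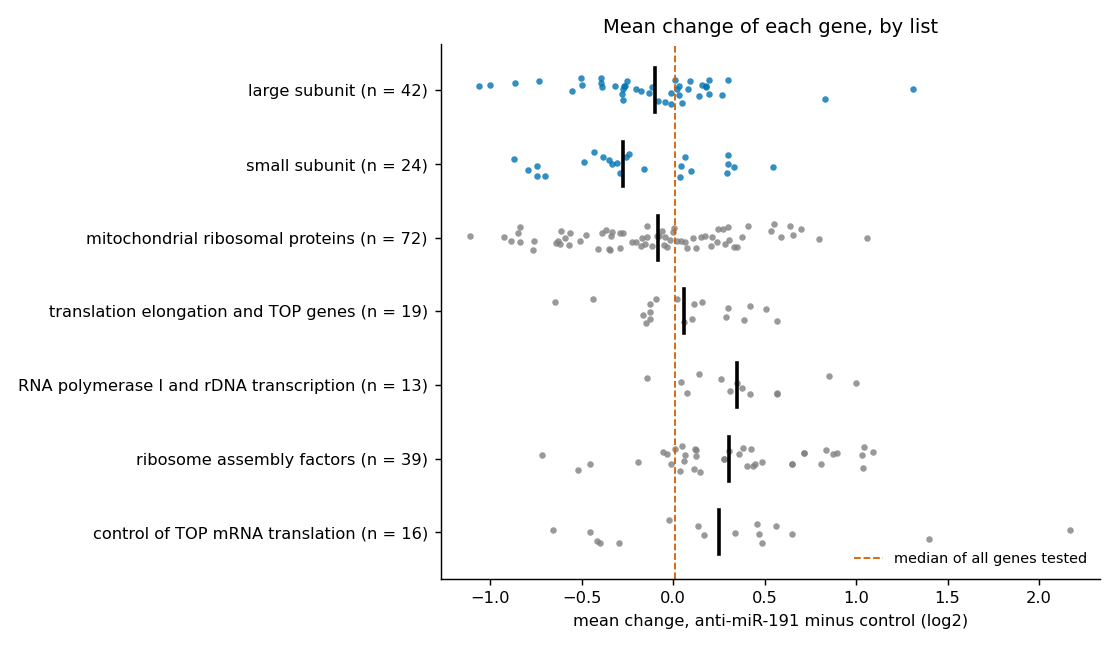
Mean change of each gene (log2, horizontal axis) for both subunits and 5 other lists of the translation apparatus, with 1 point per gene, a black bar at each list's median and a dashed line at the median of all genes tested. The small subunit has its median at -0.27, the large subunit at -0.10, and the assembly factors at 0.30.

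Paralogs and their core relatives could be compared in 7 pairs. RPL22 was near its control level in experiment 1 (0.00) and lower in experiment 2 (-0.53), whereas RPL22L1 was higher in both, so the change of RPL22L1 exceeded that of RPL22 by 0.80 and 2.34. The control levels of RPL22L1, RPL3L and RPL10L lay within the range of the markers of other cell types. RPL22 lay there on both treated arrays (5.75 and 5.90) and on the control of experiment 1 (5.75), with 6.42 on the control of experiment 2. The experiment 1 control of RPS27L (5.97) lay there too. The size of each difference that rests on these genes is uncertain. RPL7L1 exceeded RPL7 by 0.46 and 0.81. RPS27L, a p53-induced relative of RPS27, read 6.21 and 7.04 after anti-miR-191 against 5.97 and 6.61 in controls, while RPS27 read 12.09 and 12.54 against 12.45 and 12.88. Neither gene passed, and their changes lay apart by 0.60 and 0.76. For these 3 pairs and for RPL3 and RPL3L, the exact permutation test over the 4 arrays gave p = 0.333 (two-sided). That is the smallest p that 2 arrays against 2 allow when the pairing by experiment is set aside, as it was here. After adjustment over the 7 pairs none could pass. RPS4Y1 differed from RPS4X by -0.58 and -0.22 (exact permutation p = 0.667). RPL26L1 from RPL26 and RPL10L from RPL10 differed with opposite signs in the 2 experiments, with exact permutation p = 1 for both pairs. RPL36AL had no measured partner and a change of 0.30 ± 0.16 that did not pass. The 9 tested paralogs had medians of 0.08 and 0.23 in experiments 1 and 2.

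**Figure D5:**
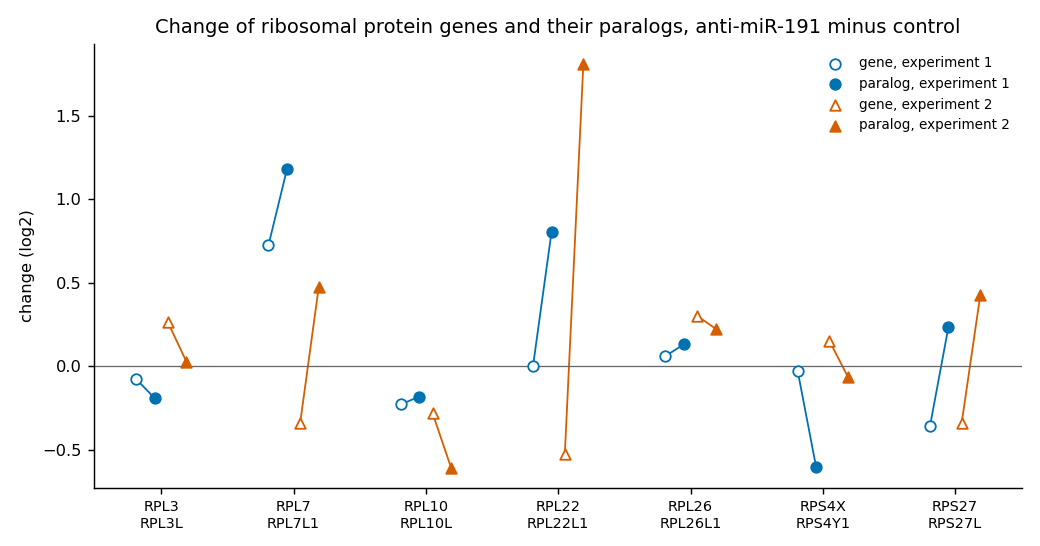
Change (log2, vertical axis) of 7 ribosomal protein genes (open symbols) and of their paralogs (filled symbols) in experiment 1 (circles) and experiment 2 (triangles), anti-miR-191 minus control. The line from gene to paralog rises in both experiments for RPL7, RPL22 and RPS27.

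A TOP-like start was common in the family, among genes that fell and among those that did not. RefSeq start windows were found for 56 of the 66 tested members, and 38 of these genes (67.9%) had at least 1 annotated start with C followed by pyrimidines to a run of 5 bases or more, read on the gene's own strand. The same held for 6.88% of the 11054 tested genes with a start window and for 5.14% of all 27305 genes with one. It held for 9.09% of 66 mitochondrial ribosomal protein genes. Among members it held for 7 of the 10 that fell, 2 of the 3 that rose and 29 of the 43 others. Median changes in experiments 1 and 2 were -0.30 and -0.19 for the 38 members with the run, and -0.06 and 0.07 for the 18 without it. A tract that begins beside the annotated start was not counted. The 18 include RPS28, which fell, and RPL10A and RPL4, each with a pyrimidine tract within a few bases after that start. The run was found in 2 of 8 paralogs and 36 of 48 core members, so the 2 sets also differ in their share of paralogs. Gene length on the genome and the mean change had Spearman rho = 0.185 over 66 members and 0.232 over 14134 genes. These are descriptions across genes that share the same 4 arrays.

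Different rows of a gene allowed a limited check within the arrays, since they can take up the same signal and are not independent. Of 23 members with several rows, 18 had all their rows change in the same direction on average. The spread between rows had a median of 0.11. Among the 18 is RPL41, which had rows identical on all 4 arrays, so the agreement of those rows was fixed. RPS28 had 3 rows with changes of -0.79, -0.76 and -0.77, and RPS9 had rows at -0.74 and -0.63. RPS3A had 5 rows with changes from 0.02 to 0.55, the brightest being the highest, and RPL7L1 had rows at 0.83 and 0.81. Rows differed in sign for 5 members, most for RPL27A. The others were RPS25 (0.10 on the brighter and -0.54 on the dimmer row), RPS15 (-0.48 and 0.27), RPL26L1 (0.18 and -0.14) and RPL12 (from -0.23 to 0.03). The mean over all rows of RPL27A had a change with an adjusted p of 0.905. Of 14 pseudogene rows, which are not members, 10 were lower in both experiments and 1 was higher in both, with a median change of -0.34. RPSAP15 had the lowest of them (-0.80), and RPL13AP20, a pseudogene of RPL13A with levels of 10.19 and 10.28 against 10.81 and 10.91, had -0.63. Whether such rows report the pseudogene or its parent was not tested.

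Other genes of ribosome production were described from 5 lists. Among factors that assemble ribosomes more genes rose than fell: of 39 tested, 11 rose and 1 fell with the block (28.2% and 2.56%, against 10.1% and 3.77% of all genes), 4 rose without it, and medians were 0.48 and 0.11 in experiments 1 and 2. Of the 39, 13 changed in opposite directions in the 2 experiments, and the difference from the ribosomal proteins was not tested. RRP12, needed for export of both subunits, read 8.51 and 8.56 after anti-miR-191 against 7.46 and 7.43 in controls and rose 2.13-fold (adjusted p = 0.0050). NMD3, the export adaptor of the large subunit, rose 2.06-fold, UTP4 of the small subunit processome rose 2.05-fold, and PNO1, a factor of small subunit maturation, rose 2.04-fold. Without the block RRP12, NMD3 and UTP4 passed (adjusted p = 0.025, 0.037 and 0.033) and PNO1 did not (0.099). The assembly factor that fell was NOP10, a small protein of the particles that make pseudouridine (-0.72 ± 0.15, adjusted p = 0.021 with the block). Without the block 0 assembly factors fell.

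Of 13 genes of RNA polymerase I and ribosomal DNA transcription 4 rose and 0 fell with the block, and 0 rose without it. The shares with the block were 30.8% and 0%, against 10.1% and 3.77% of all genes. The 4 that rose with the block were the initiation factor RRN3 (2.00-fold), TAF1D (1.81-fold), the polymerase subunit POLR1E (1.48-fold) and the upstream binding factor UBTF (1.48-fold). Elongation factors and other genes with TOP mRNAs had medians of 0.28 and -0.16 in experiments 1 and 2. Of 19 tested 1 passed (5.26%, against 13.9% of all genes). That gene was FAU, which encodes the small subunit protein eS30 fused to a ubiquitin-like protein and lies outside the RPL and RPS names. FAU read 9.95 and 10.25 after anti-miR-191 against 10.58 and 10.91 in controls and fell by 0.64 ± 0.14 (adjusted p = 0.025 with the block and 0.120 without it). The elongation factor gene EEF1A1 had a change of 0.30 ± 0.16 and EEF2 one of 0.12 ± 0.15, neither past the threshold.

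Regulators of TOP mRNA translation included the largest changes of the 5 lists. Of 16 tested 3 rose and 1 fell with the block (18.75% and 6.25%, against 10.1% and 3.77% of all genes), and 2 rose without it. SESN2 and DDIT4, both inhibitors of mTOR complex 1, rose 4.50-fold and 2.63-fold. RPTOR, a subunit of that complex, rose 1.57-fold, and EIF4EBP1, which encodes a repressor of cap-dependent translation, fell by 0.65 ± 0.15 (adjusted p = 0.025 with the block). RPTOR and EIF4EBP1 did not pass without the block (adjusted p = 0.071 and 0.074). LARP1 had a change of 0.47 ± 0.16 and MTOR one of 0.56 ± 0.19, with adjusted p = 0.101 and 0.104. The part of these regulators in the levels of ribosomal protein transcripts was not tested.

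Mitochondrial ribosomal proteins, which serve the separate ribosome of the mitochondrion, included more genes that fell than rose. Of 72 tested 14 fell and 7 rose with the block (19.4% and 9.72%, against 3.77% and 10.1% of all genes), and 3 fell and 0 rose without it. Medians were -0.17 and -0.09 in experiments 1 and 2. MRPL54 fell by 1.11 ± 0.16 and MRPL23 by 0.93 ± 0.14, whereas MRPL50 rose 2.09-fold. Without the block MRPL23 passed (adjusted p = 0.038), and MRPL54 (0.059) and MRPL50 (0.146) did not. The difference between the cytosolic and the mitochondrial list was not tested.

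Of the 77 core genes that the symbol rule could name, 57 had a row with exactly 1 symbol. The other 20, among them RPLP0, RPSA, RPS18, RPS26 and RPL13A, are not analysed here, so the counts above describe the measured part of the family.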

How the data were processed

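Total RNA of 4 HepG2 samples was hybridised to Affymetrix arrays. The deposited table holds 33297 rows of log2 intensities; the authors used RMA and Expression Console, as the submitters' processing notes list without versions or order. That the scale is log2 rests on RMA's convention and the values' range. Depth has no meaning here, and the number of arrays limits the precision. GEO's platform annotation (2016) paired 19460 rows with 1 symbol and 1754 with several, left 12083 unnamed, and only the first kind was used. Rows in the lowest 33.3% by mean level (under 3.41) were dropped and the brightest row per gene kept, which left 14147 genes.

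Differences were tested two-sided with limma 3.58.1 in R 4.3.3 (lmFit, eBayes), with the experiment as a block; p-values were adjusted by Benjamini-Hochberg across the 14147 genes and read at 0.05. Residual degrees of freedom were 1 with the block and 2 without it, moderated by 6.60 and 4.32 prior ones. The series text says that the duplicates were independent studies, and titles number them, hence the pairs; same-numbered arrays deviated from their group means with a correlation of 0.335. Whether each array is a separate culture is not stated beyond that, so p-values refer to the spread between these arrays. With 1 residual and 6.60 prior degrees of freedom, that spread is taken mostly from all genes together and less from the gene itself. Members, paralogs and lists were chosen with earlier results of these data known. Array values were printed for members past the threshold, the 5 of each subunit and direction with the largest mean change and the same sign in both experiments, members fixed for their role, and paralog pairs, with up to 4 genes past the threshold of each other list. RPL37A, RPS15, RPS25, the pseudogenes, NOP10, LARP1, MTOR, EEF1A1 and EEF2 were added after their values were seen. Both fits were tested on simulated data. Alternatives varied the block, the limit on dim rows, scaling, rows per gene, moderation, membership and the arrays included. Figures were drawn with matplotlib 3.10.9.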

Additional observations from a re-analysis of the deposited data

Results flagged for a closer look

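A dimmer row of RPL27A, outside the comparisons because the brightest row stands for each gene, read higher after anti-miR-191 in both experiments. Its controls read 6.21 and 6.21 and its treated arrays 7.11 and 7.24, a change of 0.96 (0.90 and 1.02, adjusted p = 0.0055 among all rows with 1 symbol, limma with the block). The brightest row of RPL27A fell by 0.55, and the remaining row had a change of -0.52. Which part of the gene the rising row covers was not tested.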

How the results depend on the processing

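In the fit without the block 2 members were lower and 0 higher, with 101 and 452 genes lower and higher among all tested; 11 of the 13 member calls were lost. With 1 array left out, in fits without the block, between 0 and 1 members were lower and between 0 and 1 higher, and between 0 and 24 of all genes were lower and between 0 and 315 higher. Members passed only when the treated array of experiment 1 was the one left out. These fits have 1 residual degree of freedom, and the lone array is assumed to vary like the others. Quantile normalization left 1 member higher, and 881 of all genes higher. The core members alone also had 1 higher. Under the alternatives with the block, the count of lower members lay between 8 and 12. Large minus small, the difference of medians in experiments 1 and 2 was 0.15 and 0.058 with dim rows kept, 0.089 and 0.089 after quantile normalization, 0.097 and 0.098 after cyclic loess, 0.20 and 0.077 with the mean of all rows, and 0.11 and 0.030 for core members; in experiment 2 it was 0.13 with the stricter limit on dim rows. Each of the 13 members that rose or fell kept its direction under the alternatives run. Among named members that did not pass, some turned direction. RPL11, -0.01 in the report, was 0.046 after quantile normalization and 0.031 after cyclic loess. With 1 array left out in turn, the changes of these members lay on both sides of 0: RPL11 between -0.21 and 0.19, RPL22 between -0.60 and 0.078, RPL26 between -0.15 and 0.52, RPL26L1 between -0.10 and 0.46, RPL3 between -0.14 and 0.32, RPL3L between -0.23 and 0.067, RPL7 between -0.29 and 0.68, RPS24 between -0.056 and 0.66, RPS27L between -0.084 and 0.75 and RPS4X between -0.19 and 0.32. RPLP2 passed with trend and robust moderation. The cause of these shifts was not tested.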
